A study of Homo sapiens with 32 samples.

Results

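Cytosolic ribosomal protein genes were followed through 8 groups of 2 human lung cancer cell lines. Members were all genes whose array symbol was RPL or RPS followed by digits and at most 1 letter A, X or L, or was RPLP0, RPLP1, RPLP2 or RPSA. Of the 71 such symbols in the array annotation, 15 lay only on probe sets shared with another symbol (RPL5, RPL10 and RPS2 among them) and were not measured here. The 56 members, 35 of the large subunit and 21 of the small subunit, were taken from 19775 genes, each read from its probe set of highest mean over the 32 arrays. RPLP0 and RPSA are not among the symbols of the annotation used.

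The lines were A549, from a lung adenocarcinoma, and the line the sample labels call H460a and the series text H460, from a large cell carcinoma of the lung. Each line was given vehicle or 2 µM RO4929097, a gamma-secretase inhibitor (GSI) that blocks Notch receptor cleavage, for 6 or 24 h. All groups were plated at 35% confluency, rested overnight and held 4 replicates. No label states that replicates came from separate cultures. The p-values therefore reflect sample-to-sample spread alone, which may be technical. RNA was bulk, so a change in RNA per cell and a change in the mix of cells cannot be told apart. Of the epithelial keratins, KRT18 was at 14.70 in A549 and 13.85 in H460a and KRT8 at 13.59 and 12.94, as log2 intensity. Of markers of other cell types, the leukocyte genes PTPRC, CD3E and CD14 were at 5.27, 6.89 and 8.80 in A549 and at 5.20, 6.83 and 8.63 in H460a. The fibroblast genes COL1A1, DCN, PDGFRB and LUM were at 9.26, 7.29, 7.09 and 5.06 in A549 and at 9.18, 7.30, 7.80 and 5.40 in H460a. KRT19 and CDH1 separated the lines, with KRT19 at 6.89 in A549 and 13.66 in H460a and CDH1 at 10.28 and 4.57. EPCAM was low in both, at 5.60 and 4.76.

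Ribosomal proteins assemble on ribosomal RNA into a small subunit, which reads the messenger RNA, and a large subunit, which joins amino acids. Their messenger RNAs are among the most abundant of growing cells. Most begin with a cytosine followed by an unbroken run of pyrimidines, the terminal oligopyrimidine (TOP) tract, through which the kinase complex mTORC1 controls their translation. A few members have relatives of restricted use. RPL3L is a heart and skeletal muscle form of RPL3, RPL10L and RPL39L are enriched in testis, and RPS27L is a p53-induced relative of RPS27.

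The bases around the RefSeq start site are shown for the members on which the results turn and for RPS27, the relative of RPS27L. They show which of these genes have the tract at the annotated start. Start sites in these cells were not measured. Each line gives 50 bases before and 15 from the start in GRCh38.p14, and capitals mark the pyrimidine run from the annotated first base.
RPS27, chr1:153990712-153990776, plus strand: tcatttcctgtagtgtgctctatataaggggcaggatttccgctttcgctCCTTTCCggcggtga
RPS27L, chr15:63157463-63157527, minus strand: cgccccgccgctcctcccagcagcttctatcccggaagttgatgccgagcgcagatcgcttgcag
RPL14, chr3:40457289-40457353, plus strand: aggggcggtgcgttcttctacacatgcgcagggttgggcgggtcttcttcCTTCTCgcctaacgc
RPL35, chr9:124861943-124862007, minus strand: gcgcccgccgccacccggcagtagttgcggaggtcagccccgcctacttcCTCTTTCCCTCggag
RPL36, chr19:5690245-5690309, plus strand: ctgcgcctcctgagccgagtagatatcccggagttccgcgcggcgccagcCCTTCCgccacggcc
RPS6, chr9:19380222-19380286, minus strand: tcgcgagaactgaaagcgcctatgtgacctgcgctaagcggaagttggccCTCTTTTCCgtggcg
RPS9, chr19:54200808-54200872, plus strand: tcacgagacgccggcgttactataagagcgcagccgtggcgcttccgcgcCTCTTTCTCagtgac
RPS27L has no such run at this start, whereas its relative RPS27 has 7 pyrimidines. The run is 6 bases in RPL14 and RPL36, 9 in RPS6 and RPS9, and 11 in RPL35.

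RefSeq windows of 300 bases (250 before the start and 50 after) were held for 48 of the 56 members. A cytosine at the start followed by at least 4 pyrimidines, a definition chosen after the sequences were seen, was present in 34 of the 48 (70.8%) and in 4.07% of all 35116 windows. The runs of these 34 members were 5 to 19 bases long with a median of 8. The 14 without it at an annotated start were RPL10A, RPL10L, RPL19, RPL27, RPL3, RPL32, RPL6, RPL9, RPS15, RPS27L, RPS28, RPS29, RPS4X and RPS7. A start used in the cells a few bases away could still begin with a tract, so these genes are not shown to lack one. The ETS-type letters CCGGAAG, searched on both strands, were in 18 of 48 members (37.5%) and in 10.3% of all windows. The letters CTTTCC were in 22 members (45.8%) against 26.3%, and the GC box GGGCGG was in 28 (58.3%) against 45%. The YY1-type letters AGATGGC were in RPL24, RPL35A, RPS28, RPS3 and RPS4X (10.4% against 5.41%). The E-box CACGTG was in RPL19, RPS19 and RPS28 (6.25% against 7.26%), and the TATA letters TATAAA were in RPL10L, RPL3, RPS28 and RPS3 (8.33% against 11.5%). The letters GTGGGAA, bound by the Notch effector RBPJ, were in the window of RPL39 alone among these 48 members (2.08% against 6.25%). A member with several windows was counted if any of them held the letters, these motifs can overlap each other, and a match is not a binding site.

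Of the 56 members, 50 had bright probe sets, with means over all arrays of 13.26 to 15.26 on the log2 scale, and 98.8% of all genes lay below 13.26. The other 6 were dim at 6.16 to 8.93. They were the restricted forms RPL3L, RPL10L and RPL39L, and RPL27A, RPL36A and RPLP2. Since signal differs between probe sets for reasons other than abundance, levels are not compared between genes. Across members, a difference of 2 groups had a standard error of 0.0605 in the median, and across all genes of 0.0874.

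Array brightness differed between groups, and the members sit at the bright end where it shows most. The mean intensity of all probe sets was 468 to 496 in the A549 vehicle 6 h arrays, 496, 531, 589 and 583 in the A549 GSI 6 h arrays 1 to 4, and 570 to 613 in the others. The median of the 50 bright members was 14.17 to 14.31, then 14.34, 14.48, 14.64 and 14.63, and 14.58 to 14.75 in the others. The medians of all genes stayed at 7.47 to 7.64. After quantile normalization over the 32 arrays, which gives each array the same distribution of values, the median of the bright members was 14.53 to 14.69. Each result is therefore given as deposited and quantile normalized. Quantile normalization would also remove a true shift shared by most of the brightest genes. Separately, replicate 3 of H460a vehicle 6 h stood apart, with 3′ minus 5′ differences of 2.19 for the ACTB control probe sets against at most 0.42 elsewhere, and 0.27 for GAPDH against at most 0.083.

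**Figure D1:**
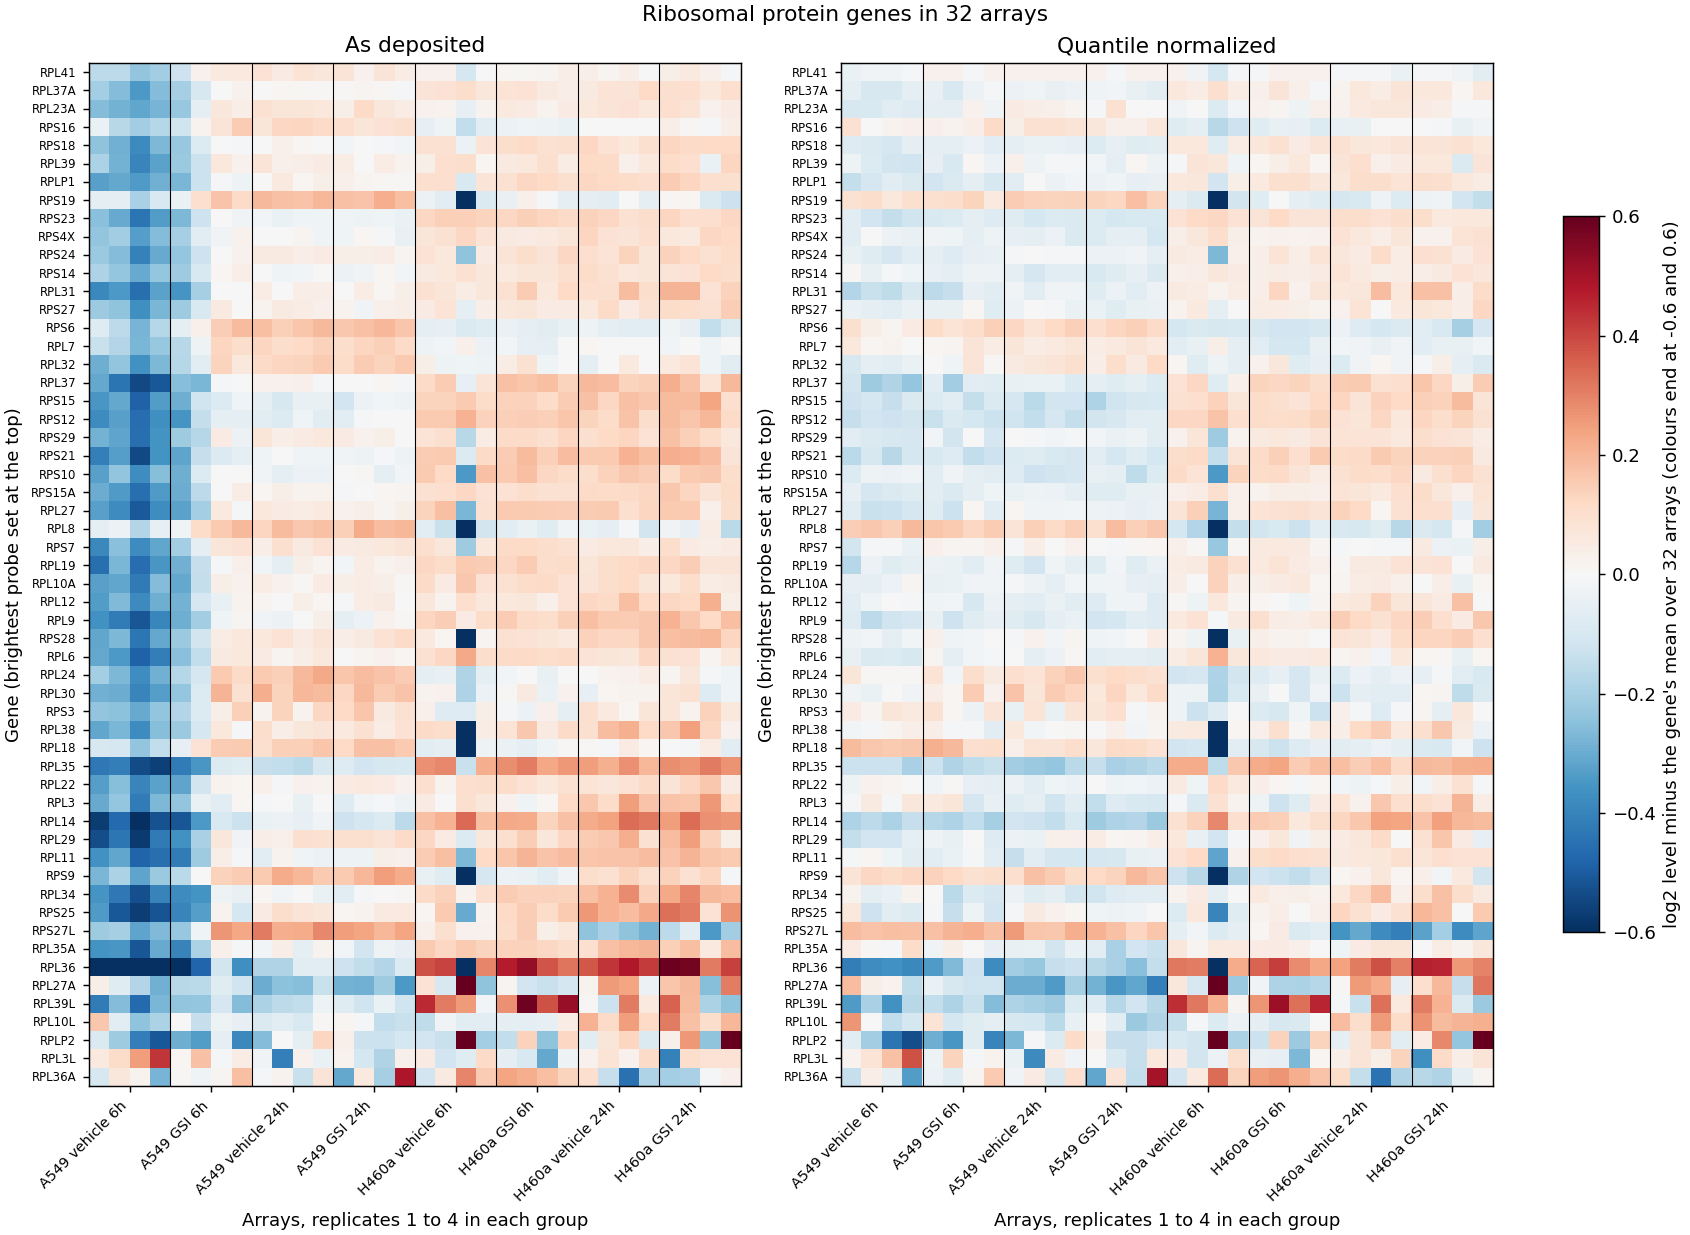
Level of each of the 56 ribosomal protein genes (rows, brightest probe set at the top) in each of the 32 arrays (columns, 4 per group) as log2 level minus the gene's mean over all arrays, as deposited on the left and quantile normalized on the right. As deposited, the A549 vehicle 6 h columns and the first A549 GSI 6 h columns are low for nearly all bright genes, a band that is faint on the right. RPL36, RPL35 and RPL14 are lower in A549 with vehicle in both panels. RPS27L as deposited is lower in A549 at 6 h and higher at 24 h with vehicle.

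**Figure D2:**
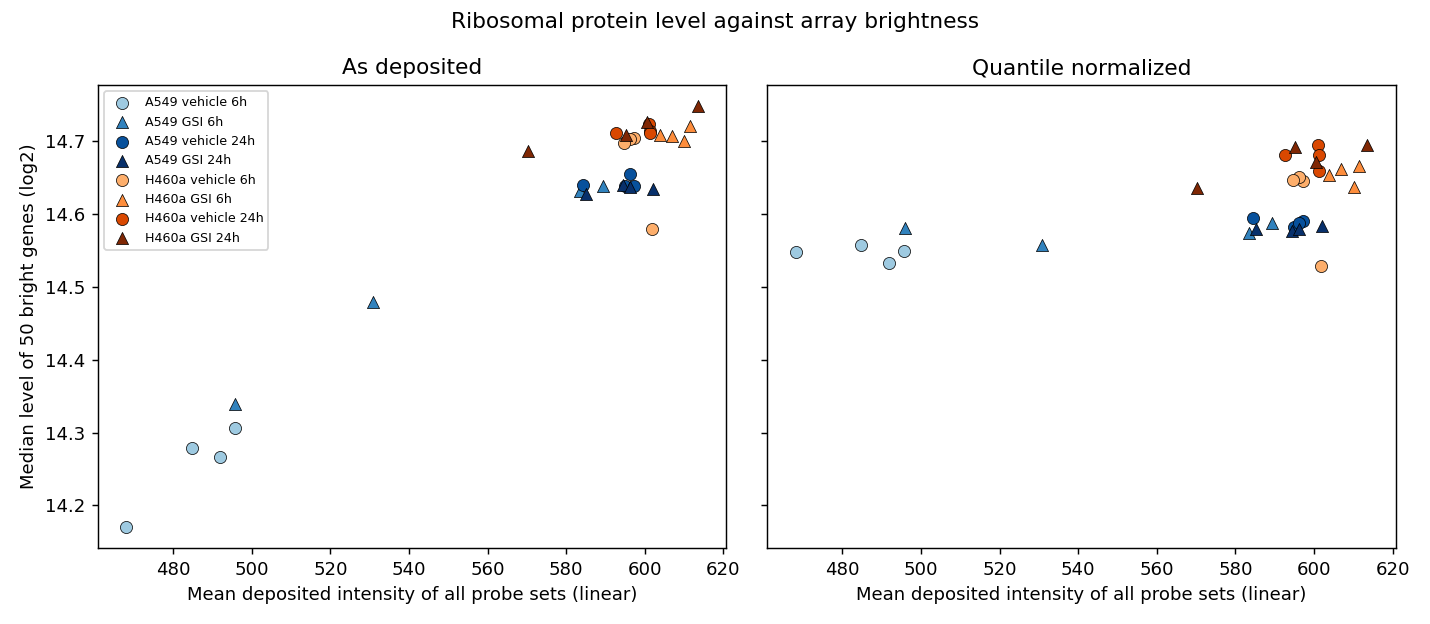
Median log2 level of the 50 bright ribosomal protein genes (vertical) against the mean deposited intensity of all probe sets (horizontal), 1 point per array, as deposited on the left and quantile normalized on the right. As deposited, the medians run from 14.17 in the dimmest array to 14.75, and after quantile normalization all lie between 14.53 and 14.69.

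The question of the inhibitor comparison was whether gamma-secretase inhibition changed these transcripts. In A549 at 6 h, 43 of 56 members were higher with GSI as deposited, 25 RPL and 18 RPS, and 0 were lower, with a median difference of 0.23 on the log2 scale. Of all genes, 11.6% were higher and 1.51% lower at this threshold (limma, adjusted p under 0.05). Among the 3427 genes with a mean of at least 10, 1426 were higher and 7 lower, with a median of 0.198. After quantile normalization 0 members were higher and 0 lower, 0 had an unadjusted p under 0.05, and their median difference was 0.017, where 1.34% of all genes were higher and 1.48% lower.

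RPL29, a heparin-binding protein of the large subunit, shows how the arrays were placed. It was at 13.62, 13.71, 13.57 and 13.72 with vehicle and at 13.78, 13.95, 14.22 and 14.13 with GSI, so the groups did not overlap and arrays 3 and 4 were the high ones. The difference was 0.36 ± 0.069 (SE, n = 4 against 4, adjusted p = 0.00256), and 0.07 after quantile normalization (adjusted p = 0.421). RPL6 differed by 0.32 (adjusted p = 0.00256) and by 0.06. RPL30, RPL37, RPS7, RPL9 and RPL24 differed by 0.28 to 0.32 as deposited. The 28 members whose GSI arrays all lay above their vehicle arrays compare with 9.51% of all genes, and 0 members lay wholly below, against 2.96%.

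Of the genes with named roles, RPL11, which with RPL5 and 5S rRNA binds MDM2, rose by 0.25 as deposited and was at -0.02 when quantile normalized. RPS6, the protein that S6 kinases phosphorylate, rose by 0.25 and was at 0.06. RPLP1 of the stalk that recruits elongation factors rose by 0.20 and was at 0.01. RPL39, RPL22, RPL3 and RPS4X rose by 0.23, 0.23, 0.22 and 0.19 and were at 0.04, -0.03, -0.03 and 0.00. RPS27L rose by 0.31 and RPS27 by 0.21, and both were at 0.01. RPS19, the gene most often mutated in Diamond-Blackfan anaemia, differed by 0.19 and did not pass the test. RPL36 had a difference of 0.35 with an adjusted p of 0.0782. Both passed, with the same differences, when H460a vehicle 6 h replicate 3, which is in neither group but enters the fit, was left out (adjusted p = 0.0124 and 0.0044 in limma). The restricted forms RPL3L, RPL10L and RPL39L, and RPLP2, whose chosen probe set was dim, differed by -0.16, 0.03, 0.15 and 0.04 without passing the test.

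The A549 6 h count fell most without either of the 2 brighter GSI arrays or the dimmest vehicle array. It was 8 without A549 GSI 6 h replicate 3, 12 without replicate 4 and 14 without A549 vehicle 6 h replicate 3. It rose to all 50 bright members, with the same differences, without H460a vehicle 6 h replicate 3, which is in neither group. Their adjusted p in limma was then at most 0.0154. Without both GSI replicates 3 and 4 and the H460a array that stood apart, 0 members passed as deposited and the bright members differed by 0.060 to 0.214, with a median of 0.127 for all members. That last fit held 2 GSI arrays against 4 with vehicle. Fewer arrays and the values of those left out cannot be told apart in its count. Shares of all genes passing in these fits are not given here. The part of array brightness in the A549 6 h difference was not tested.

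At 24 h in A549, 0 members passed in either direction under either scaling, with 0 at an unadjusted p under 0.05 as deposited. The median difference was -0.0069, and members ran from -0.08 in RPL14 to 0.05 in RPL3L. RPLP1, RPLP2, RPL10L, RPL39L, RPS27L, RPL3, RPL39, RPS27, RPL11, RPS6, RPS4X, RPS19 and RPL22 lay between -0.04 and 0.04. The 95% intervals of the bright members lay between -0.282 and 0.277, and 1.32% of all genes were higher and 0.885% lower as deposited and 1.68% and 1.4% quantile normalized. No member's GSI arrays all lay above the vehicle arrays, against 7.1% of genes, and those of 3 members all lay below, against 5.14%.

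In H460a, 0 members passed at 6 h, where the median difference was 0.041 and 8 had an unadjusted p under 0.05. Of all genes, 0.0708% were higher and 0.0253% lower as deposited, and 0.0759% and 0.0253% quantile normalized. The extremes were RPL27A at -0.72 and RPL36 at 0.32, and both rest on replicate 3 of the vehicle group. Without it RPL27A differed by -0.001 and RPL36 by 0.07, RPS9 by 0.03 and RPL38 by 0.01, and the bright members ran from -0.022 to 0.070. RPLP2 and RPS19 differed by -0.55 and 0.22 with that array and by 0.12 and 0.04 without it. RPL39L, RPL11 and RPL3L differed by 0.19, 0.14 and -0.11, and RPLP1, RPL10L, RPS27L, RPL3, RPL39, RPS27, RPS6, RPS4X and RPL22 by -0.03 to 0.06. At 24 h in H460a, 0 members passed with 0 at an unadjusted p under 0.05, where 0.00506% of all genes were higher and 0 lower as deposited and 0.0101% higher quantile normalized. RPLP2 and RPL3L differed by 0.19 and -0.09, and the other 12 of these named genes (RPL39L and RPS27L among them) by -0.03 to 0.05. The median was 0.0042, and the 95% intervals of the bright members lay between -0.274 and 0.321.

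**Figure D3:**
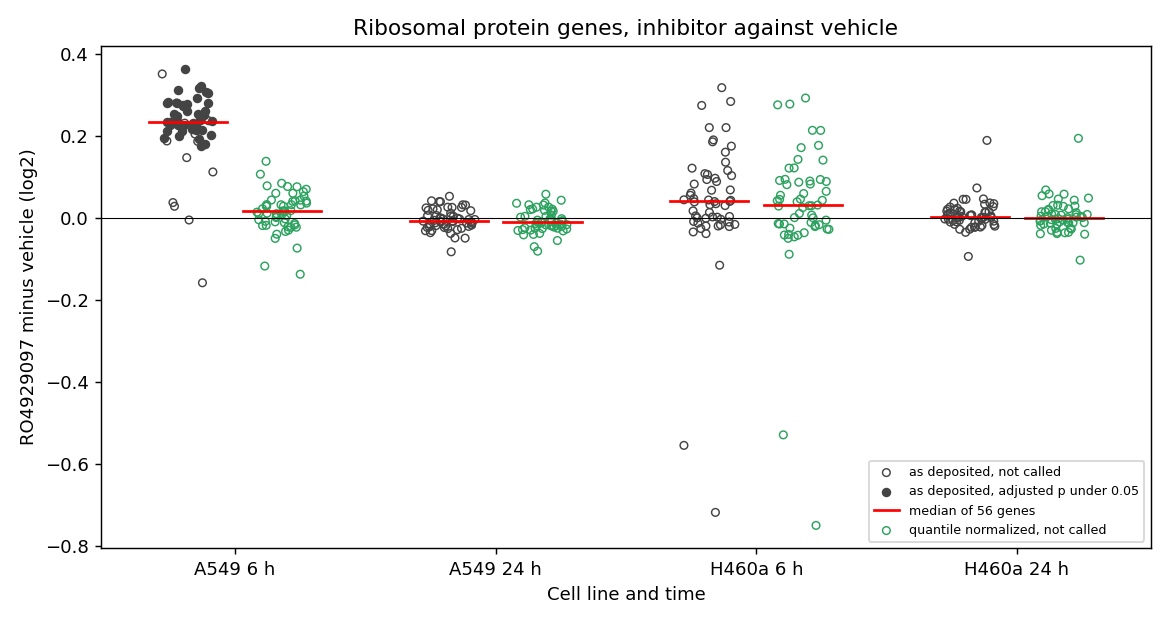
Difference between GSI and vehicle for each of the 56 ribosomal protein genes (1 point per gene, log2) in each line and time, as deposited (dark) and quantile normalized (green), with the median of the 56 genes as a red line. Filled points pass the test, and all 43 of them are in A549 at 6 h as deposited, where the median falls from 0.23 to 0.017 with quantile normalization.

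The difference of the GSI effect between times or lines was tested directly. In A549 the effect at 24 h minus that at 6 h was lower for 10 members as deposited, against 3.05% of all genes, and higher for 0, against 0.657%. They were RPL14, RPL30, RPL6, RPL29, RPL37, RPS7, RPL9, RPL24, RPS29 and RPS15A, led by RPL14 at -0.36 ± 0.095 (SE, adjusted p = 0.0315). Of the 3427 genes with a mean of at least 10, 371 were lower and 6 higher, with a median of -0.189. None of the 56 passed when quantile normalized, against 1.15% of genes higher and 1.01% lower. As deposited the count was 0 without A549 GSI 6 h replicate 3, 0 without replicate 4 and 0 without A549 vehicle 6 h replicate 3, 41 without GSI 6 h replicate 1, 15 without GSI 6 h replicate 2 and 12 without vehicle 6 h replicate 1. Without H460a vehicle 6 h replicate 3, which is in none of the groups compared, 21 were lower with the same differences, against 5.33% of genes. Leaving out any array of the 24 h groups gave 1 to 5, and leaving out vehicle 6 h replicates 2 and 4 gave 3 and 2. RPS27L was at -0.34, RPL3L at 0.21, RPLP2 at -0.07, RPL10L at -0.04 and RPL39L at -0.11, and RPLP1, RPL3, RPL39, RPS27, RPL11, RPS6, RPS4X, RPS19 and RPL22 lay between -0.25 and -0.19, none of them past the test. The GSI effect in A549 minus that in H460a passed for 0 members at 24 h, against 0.364% of genes higher and 0.273% lower, with a median of -0.0088. It passed for 0 members at 6 h, against 0.086% and 0.0354%, with a median of 0.20 as deposited and -0.0096 quantile normalized. At 6 h 33 of the 56 had an unadjusted p under 0.05 as deposited, and 0 when quantile normalized. With genes of a mean under 10 left out, 30 passed as deposited. The 3427 genes with a mean of at least 10 had a median of 0.158 as deposited, against 0.027 for all genes. Shares of genes meeting these rules are not given here. At 24 h RPLP2 and RPL3L were at -0.23 and 0.15 and the other 12 named in each comparison between -0.08 and 0.08. At 6 h RPLP2 was at 0.59, and at -0.08 without H460a vehicle 6 h replicate 3, and the other 13 lay between -0.04 and 0.26. The count passing at 6 h as deposited was 27 without A549 GSI 6 h replicate 1 and 1 without replicate 2. Shares of all genes in those fits are not given here.

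Members were also compared between 24 and 6 h in the vehicle groups, a comparison of time since dosing in which time in culture and array brightness moved together in A549. In A549, 50 of 56 members were higher at 24 h as deposited and 1 was lower, with a median of 0.35, against 29.2% of all genes higher and 15% lower. Of the 3427 genes with a mean of at least 10, 2369 were higher and 87 lower, with a median of 0.310. After quantile normalization 4 members were higher, RPL30 (0.15), RPL32 (0.14), RPL37 (0.13) and RPL23A (0.12), and RPL3L was lower (-0.26), against 16.6% and 22.1%. The median was then 0.038. With the 3 arrays named above left out, the quantile-normalized differences were the same but 7 were called higher, adding RPL36 (0.21), RPL31 and RPL24, and 4 lower, adding RPL27A (-0.31), RPL18 and RPL35A, against 17.8% and 24.4% of genes. The largest differences as deposited were RPL36 at 0.64 ± 0.13, RPS25 at 0.56, RPL29 at 0.55, RPL14 at 0.51, RPL30 at 0.51, RPS27L at 0.51, RPL37 at 0.47 and RPL24 at 0.46.

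The signs of RPL11, RPL22, RPL3 and RPS4X turned with the scaling, from 0.38, 0.34, 0.29 and 0.26 as deposited to -0.08, -0.05, -0.10 and -0.02. RPS6, RPLP1, RPL39, RPS27 and RPS19 rose by 0.29 to 0.35 as deposited and were at 0.03 to 0.08 when quantile normalized. Arrays of the groups did not overlap for 51 members above, against 29.8% of genes, and 1 below, against 12.9%. RPL3L, the muscle form, was the member below. It was at 6.42, 6.48, 6.61 and 6.79 at 6 h and at 6.34, 5.95, 6.39 and 6.32 at 24 h, a difference of -0.32 ± 0.10 (SE, n = 4 against 4, adjusted p = 0.0089) at a signal among the lowest of the members. RPL10L, RPL39L and RPLP2 differed by 0.02, 0.22 and 0.26 without passing.

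In H460a, whose vehicle arrays were of like brightness at both times, the members moved little. 6 were higher at 24 h and 1 was lower as deposited, with a median of 0.053, against 15.1% of all genes higher and 15.3% lower. Quantile normalized, 4 were higher and 1 lower, against 16.4% and 15.7%. The 6 were RPS9 (0.43), RPL38 (0.33), RPS28 (0.28), RPL10L (0.25), RPS25 (0.25) and RPL18 (0.23). RPL11, RPL22, RPL3, RPL39, RPS27, RPS6, RPS4X and RPLP1 differed by 0.00 to 0.13, RPL39L and RPL3L by -0.19 and 0.07, and RPLP2 and RPS19 by -0.51 and 0.20, none past the test.

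Of these, RPS9, which lines the mRNA entry channel of the small subunit, was at 14.00, 13.98, 12.97 and 13.95 at 6 h and at 14.16, 14.14, 14.19 and 14.15 at 24 h. Replicate 3 of the 6 h group, the array that stood apart, was the low one. Without it the difference was 0.18 ± 0.061 (SE, n = 3 against 4, adjusted p = 0.0237), against 0.43 with it. RPL38 was at 14.49, 14.49, 13.43 and 14.43 at 6 h and at 14.48 to 14.59 at 24 h, and its difference was 0.07 without that array (adjusted p = 0.504). RPS28, RPS25 and RPL18 differed by 0.11, 0.16 and 0.07 without it as deposited and did not pass. Quantile normalized without it, RPS28 passed at 0.10 (adjusted p = 0.0402 in limma), and RPS25 and RPL18 did not. RPL10L was at 0.25 without it (adjusted p = 0.00809). RPLP2 turned to 0.16 and RPS19 came to 0.01, neither past the test. As deposited the count was 3 without that array and 11 without H460a vehicle 6 h replicate 1.

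RPS27L was the member that fell with time in H460a. It was at 13.50, 13.57, 13.50 and 13.50 at 6 h with vehicle and at 13.23, 13.28, 13.23 and 13.19 at 24 h, and the groups did not overlap. The fall was -0.28 ± 0.073 (SE, n = 4 against 4, adjusted p = 0.00251), -0.31 when quantile normalized (adjusted p = 9.36e-07) and -0.29 without the array that stood apart (adjusted p = 0.00428). In the GSI groups, which were not part of this test, RPS27L was at 13.58, 13.62, 13.51 and 13.54 at 6 h and at 13.32, 13.40, 13.13 and 13.27 at 24 h, again without overlap. Of its dimmer probe sets, the one with a mean of 8.49 fell by 0.57 (adjusted p = 4.98e-05 in limma over all probe sets) and the one with a mean of 9.13 differed by -0.42 without passing.

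In A549 RPS27L was at 13.26, 13.28, 13.16 and 13.21 at 6 h and at 13.78, 13.69, 13.70 and 13.76 at 24 h. That rise of 0.51 as deposited was 0.02 when quantile normalized (adjusted p = 0.714). The difference between lines in the change with time, a comparison added after the values were seen, was 0.79 ± 0.10 as deposited (adjusted p = 4.26e-07) and 0.33 ± 0.062 quantile normalized (SE, adjusted p = 0.000128). It was 0.34 quantile normalized without the 3 arrays named above (adjusted p = 0.000126). Over all members this comparison was higher for 40 and lower for 1 as deposited, against 24.4% and 11.1% of genes. It was higher for 1991 and lower for 180 of the 3427 genes with a mean of at least 10. Quantile normalized it was higher for 1, RPS27L, and lower for 2, RPL10L (-0.34) and RPL3 (-0.19), against 14.2% and 16.8%. With the 3 arrays left out it was higher for 2, RPS27L and RPL30, and lower for 4, RPL10L, RPL3, RPL27A and RPS9, against 13.9% and 16% of genes. RPS27, which RPS27L resembles, changed with time in H460a by 0.05 and differed between lines in that change by 0.26 as deposited and -0.01 quantile normalized.

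**Figure D4:**
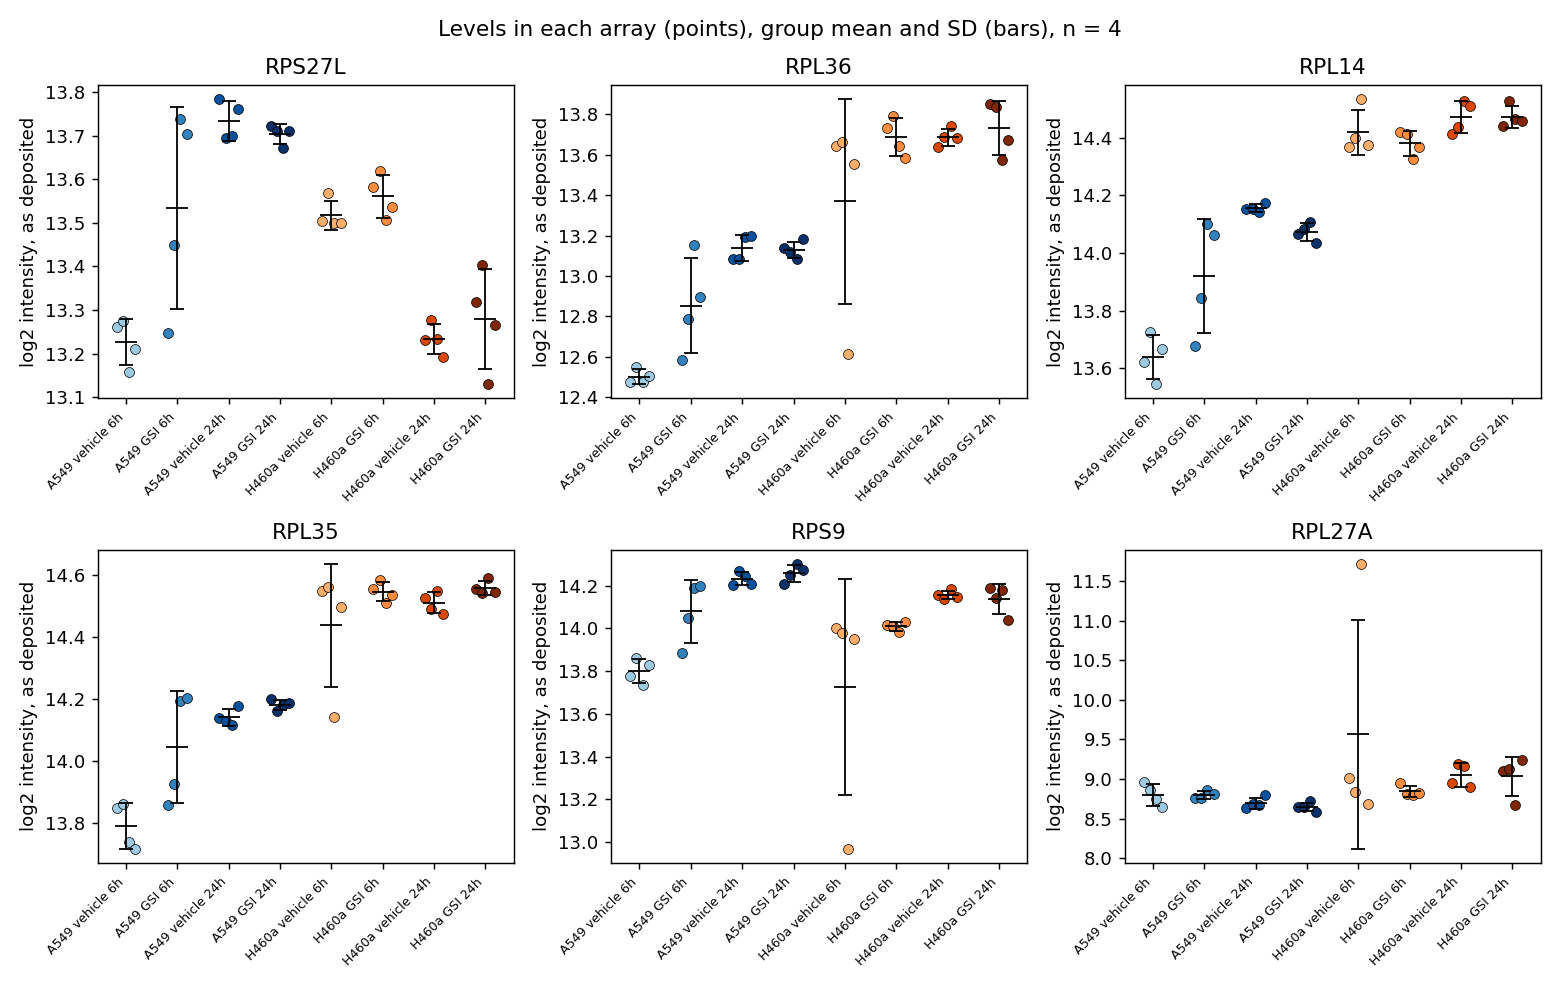
Log2 intensity as deposited of RPS27L, RPL36, RPL14, RPL35, RPS9 and RPL27A in each array (points) with group mean and SD (bars, n = 4), each panel on its own scale. RPS27L is at 13.19 to 13.28 in H460a vehicle at 24 h and at 13.50 to 13.57 at 6 h, and 1 array of H460a vehicle 6 h lies far from the others in RPL36, RPL35, RPS9 and RPL27A.

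Between the lines, at 24 h with vehicle, where array brightness was close, A549 was higher than H460a for 6 members and lower for 13, with a median of -0.081. Of all genes 25.2% were higher and 21.7% lower, so the share of members lower, 13 of 56, was near that of all genes and the share higher was below it. Quantile normalized, 8 were higher and 24 lower, against 25.5% and 22.8%. The arrays of A549 all lay above those of H460a for 12 members, against 25.3% of genes, and all below for 33, against 22.1%.

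The lower members were led by 3 large-subunit proteins. RPL36 was at 13.08, 13.08, 13.19 and 13.20 in A549 and at 13.64, 13.69, 13.74 and 13.68 in H460a, a difference of -0.55 ± 0.13 (SE, n = 4 against 4, adjusted p = 0.000868). RPL35, which lies at the rim of the peptide exit tunnel, was at 14.12 to 14.18 and at 14.48 to 14.55, a difference of -0.37 ± 0.074 (adjusted p = 7.98e-05). RPL14 was at 14.14 to 14.17 and at 14.41 to 14.53, a difference of -0.32 ± 0.067 (adjusted p = 0.000158). In none of the 3 did the groups overlap, and quantile normalized the differences were -0.49, -0.36 and -0.31.

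The other lower members at 24 h were RPL10L (-0.23), RPS15 (-0.22), RPL34 (-0.21), RPL11 (-0.20), RPS21 (-0.20), RPL3 (-0.19), RPS12 (-0.19), RPL35A (-0.17), RPL9 (-0.17) and RPS23 (-0.14). RPS23 and RPS15 lie at the decoding centre of the small subunit and RPS12 on its beak. RPLP1, RPL39, RPS27, RPS4X and RPL22 differed by -0.10 to -0.03 as deposited, without passing, and of these RPLP1 and RPS4X passed quantile normalized, both at -0.12. RPLP2, RPL3L and RPL39L differed by -0.06, -0.17 and -0.19 without passing, and RPL39L passed quantile normalized at -0.23.

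The higher members at 24 h were RPS27L, RPS19, RPS6, RPL8, RPL30 and RPL24. RPS27L was at 13.78, 13.69, 13.70 and 13.76 in A549 against 13.23, 13.28, 13.23 and 13.19 in H460a, a difference of 0.50 ± 0.073 (SE, adjusted p = 4.86e-07). RPS6 was at 14.96 to 15.01 against 14.75 to 14.79, a difference of 0.22 ± 0.053 (adjusted p = 0.000598). RPL8, a protein near the peptidyl transferase centre, was at 14.72 to 14.78 against 14.48 to 14.58, a difference of 0.22 (adjusted p = 0.0169). RPS19 was at 15.12 to 15.15 against 14.88 to 14.95, a difference of 0.23 (adjusted p = 0.043). RPL30 and RPL24 differed by 0.18 and 0.16. The call of RPL8 was lost without H460a vehicle 24 h replicate 4, and that of RPS19 without any 1 of the 8 arrays compared.

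At 6 h the comparison of the lines also holds the difference in array brightness, which cannot be told apart from it as deposited. A549 was lower for 45 members and higher for 0, with a median of -0.36, against 28.6% of genes lower and 28.5% higher. Of the 3427 genes with a mean of at least 10, 2102 were lower and 701 higher, with a median of -0.347. Quantile normalized, 20 members were lower and 8 higher with a median of -0.054, against 22.9% and 32.8%. RPL36, RPL35 and RPL14 differed by -0.87, -0.65 and -0.78 as deposited and by -0.41, -0.26 and -0.32 quantile normalized. Replicate 3 of H460a vehicle 6 h was low for RPL36, at 12.61 against 13.56 to 13.67, and without it the difference of RPL36 was -1.12 as deposited and, with the 2 brighter A549 GSI arrays also left out, -0.66 quantile normalized.

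RPS27L changed sign with the scaling at 6 h, from -0.29 as deposited (adjusted p = 0.000946) to 0.23 quantile normalized (adjusted p = 3.77e-05). RPL3 went from -0.36 to 0.02. RPL8, RPS19 and RPS6 were at 0.15, 0.14 and -0.10 as deposited and at 0.43, 0.35 and 0.14 quantile normalized. RPLP2 and RPL27A, at -0.83 and -0.76 as deposited, were at -0.16 and -0.04 without the H460a array that stood apart (adjusted p = 0.375 and 0.743). RPL39L, the testis-enriched form, was at 7.98, 8.14, 7.93 and 8.12 in A549 and at 8.85, 8.71, 8.66 and 8.38 in H460a, a difference of -0.60 as deposited, -0.52 quantile normalized and -0.60 without that array. RPL10L and RPL3L differed by -0.01 and 0.22 without passing. RPLP1, RPL39, RPL11, RPS4X, RPL22 and RPS27 were lower by 0.30 to 0.45 as deposited, and of these RPLP1, RPL39 and RPS4X were also lower when quantile normalized.

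The members lower in A549 at both times under both scalings were RPL14, RPL35, RPL36, RPL9, RPS12, RPS15, RPS21 and RPS23, 8 of 56, where 14.9% of all genes met the same rule. None was higher under that rule, against 16% of genes. With quantile normalization alone, 6 were higher at both times (RPL24, RPL8, RPS16, RPS19, RPS27L and RPS6), against 19.7%, and 16 lower, against 15.9%. With the 3 arrays left out, 8 were higher, against 20.1%, and 19 lower, against 16.4%, and 0 members pointed in opposite called directions at the 2 times, against 2.48%. The 8 higher added RPL18 and RPS9 to the 6.

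**Figure D5:**
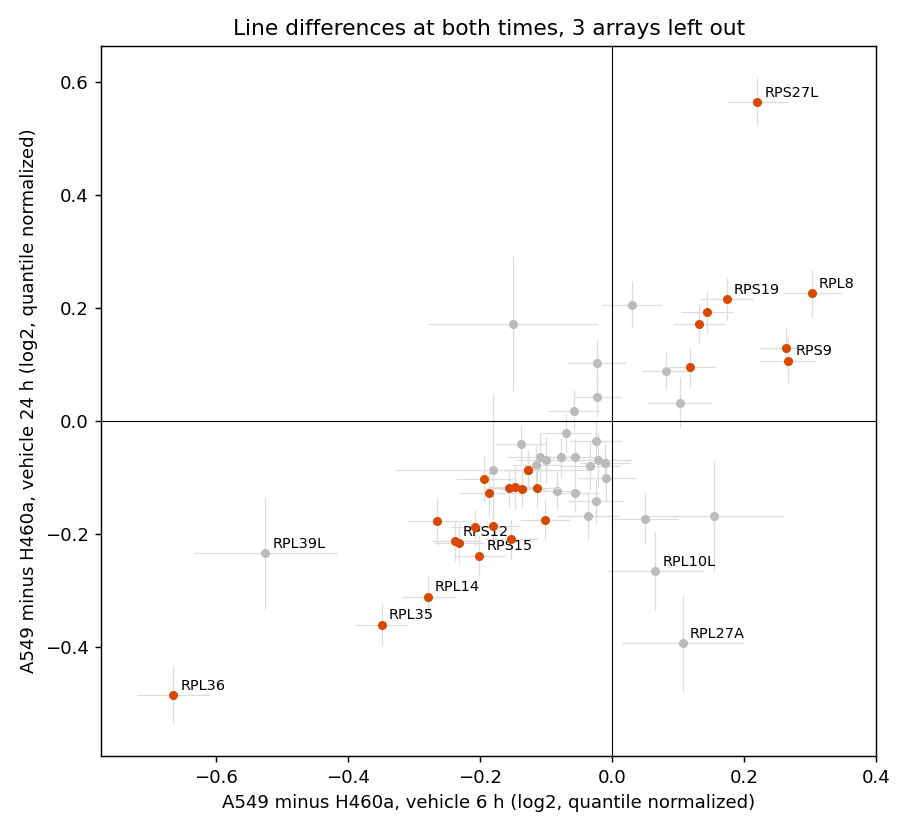
Difference between A549 and H460a with vehicle at 6 h (horizontal) and at 24 h (vertical) for each of the 56 ribosomal protein genes, log2, quantile normalized with 3 arrays left out, with SE as grey lines. Orange points pass the test at both times in the same direction, 8 higher and 19 lower, and RPL36 lies at -0.66 and -0.49 and RPS27L at 0.22 and 0.56.

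Other probe sets of a member did not always follow the one used. For 34 members with several probe sets, 61 others were read, 22 of them with a mean of at least 10. For A549 against H460a at 24 h, both the chosen and the other probe set passed in 10 cases and pointed opposite ways in 2, RPS21 (0.64 in a probe set with a mean of 9.46) and RPS23 (0.63 in one with a mean of 9.65), so the lower level of these genes in A549 holds for the chosen probe set. Quantile normalized it was 7 of 17, in RPL31, RPL37, RPS15A, RPS21 and RPS23. The first 3 of these are among the members lower at both times quantile normalized, at -0.13, -0.18 and -0.12 in the chosen probe set at 24 h, while others of their probe sets, with means of 8.74 to 9.09, were higher by 0.21 to 1.09. At 6 h this was 7 of 31, in RPL31, RPL37, RPS12, RPS14, RPS15A, RPS21 and RPS23, and 9 of 27 quantile normalized, in these without RPS14 and with RPS27L. For A549 over time it was 6 of 38, in RPL18, RPS12, RPS14, RPS27 and RPS9, and for A549 GSI at 6 h it was 0 of 14. RPL14 was lower in A549 at 24 h in its other probe sets, with differences of -0.44 in a bright one (mean 13.75) and -0.63 in a dim one (7.38). RPL36 differed by -0.25 in a dim one (5.25). RPS27L differed between lines at 24 h by 0.17 and -0.31 in the probe sets with means of 8.49 and 9.13, neither past the test, and at 6 h quantile normalized by -0.62 and -1.27, opposite to the 0.23 of the chosen set.

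Grouped by role, the bright members in A549 at 6 h gave like counts as deposited, where the GSI arrays were also the brighter ones. The exit tunnel proteins RPL39, RPL19, RPL22, RPL23A, RPL31 and RPL35 were higher in 6 of 6, the proteins of the decoding centre and mRNA path RPS3, RPS14, RPS15, RPS23 and RPS28 in 5 of 5, the Diamond-Blackfan anaemia genes in 8 of 10 and the MDM2 binders in 8 of 8 measured. Of the relatives RPL3L, RPL10L, RPL39L and RPS27L, 1 of 4 was higher. Quantile normalized, the count in each of these groups was 0. Each was read beside the 11.6% of all genes that were higher, and beside 1426 of the 3427 genes with a mean of at least 10.

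Translation genes outside the members are given by their counts, without a test between lists. Of 73 mitochondrial ribosomal proteins, which build the ribosome of the mitochondrion, 28 were higher with GSI in A549 at 6 h as deposited and 0 quantile normalized, against 11.6% and 1.34% of all genes. Over time in H460a, 43 were lower and 3 higher as deposited with a median of -0.25, and 40 lower and 5 higher quantile normalized. Of all genes 15.3% were lower and 15.1% higher there as deposited and 15.7% and 16.4% quantile normalized. Of 21 initiation factors, 11 were lower over time in H460a under both scalings and 0 higher, beside the same shares of all genes. EIF5, which triggers GTP hydrolysis on the initiation complex, fell by 0.99, EIF2S1 by 0.81 and EIF5B, which joins the subunits, by 0.76.

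Of 16 elongation factors and other TOP mRNAs, 3 were higher over time in H460a and 0 lower as deposited, and 5 and 0 quantile normalized, against 15.1% and 16.4% of all genes higher. With GSI in A549 at 6 h, 13 of these 16 and 13 of the 21 initiation factors were higher as deposited, and 0 of each were higher quantile normalized, against 11.6% and 1.34%. Of 12 regulators of mTORC1 and TOP mRNAs, 2 were higher there as deposited and 0 quantile normalized.

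Of the 6 measured near relatives outside the rule (RPL22L1, RPL26L1, RPL36AL, RPL7L1, RSL24D1 and FAU), RPL22L1 was the one that rose with GSI in A549 at 6 h under both scalings, by 0.40 as deposited (adjusted p = 0.0019) and 0.19 quantile normalized (adjusted p = 0.0266). RPL22, the gene it resembles, was at 0.23 and -0.03. RPL22L1 fell over time in H460a by 0.35 and was lower in A549 than in H460a at 24 h by 0.81. None of these lists had a member past the threshold with GSI in H460a under either scaling. At most 0.0759% of all genes were higher and 0.0253% lower there. In A549 at 24 h, 1 list member passed, the initiation factor EIF4G2 at -0.17 when quantile normalized (adjusted p = 0.0486), against 1.68% of all genes higher and 1.4% lower.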

How the data were processed

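The deposited values are an intensity on a linear scale for 54675 probe sets of an Affymetrix array in 32 samples, which the authors summarised by RMA according to the submitters' processing notes, deposited unlogged to judge from their range. For RMA, the version and settings were not given in the sources used here. RNA came from RNeasy columns, and 15 µg entered cDNA synthesis, per the labels' protocols. The number of arrays limits the precision, and calls of detection were not used here.

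Values were log2-transformed without a pseudocount. The 62 control probe sets, 11721 with no symbol and 1801 with several symbols were left out, and the other 41091 gave 19775 genes. All 56 member gene IDs were found in the RefSeq table. Means of the 8 groups were fitted over all 32 arrays with limma 3.58.1 in R 4.3.3 (lmFit, eBayes, 31.89 total degrees of freedom, 7.888 of them prior). Benjamini-Hochberg adjustment ran over all genes within a comparison, with a threshold of 0.05. Comparisons of probe sets were adjusted over all 41091. Members and lists were chosen with earlier results of these data known. The genes named are, for each comparison, the members past the threshold with the greatest differences, up to 8 in each direction. Named in each as well are RPLP1, RPLP2, RPL3L, RPL10L, RPL39L, RPS27L, RPL3, RPL39, RPS27, RPL11, RPS6, RPS4X, RPS19 and RPL22, and members whose probe sets disagree past the threshold. RPS9, RPL38, RPL27A and RPL36 at 6 h in H460a, and single genes given in lists of calls without some arrays, were named after their values were seen.

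Alternatives were quantile normalization over all arrays or within a line, centring, other handling of probe sets, filters on dim genes and eBayes with trend and robust. Others were array weights, fits of fewer groups, a replicate block and leaving out each array of the groups compared. Leaving out arrays that stood apart was chosen after the data were seen. The steps were tested on simulated data. No label states that same-numbered replicates were paired, and the correlations of their deviations ran from -0.35 to 0.32. Tables and figures were made with Python 3.11.15, pandas 2.3.3 and matplotlib 3.10.9.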

Additional observations from a re-analysis of the deposited data

Results flagged for a closer look

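Of 104 group values tested (12 members and the median of the 50 bright members in 8 groups), 12 had a replicate far from the other 3. Chance flags about 1 in 20 groups, but RPL36, RPS9, RPL38 and RPL27A were taken in after their values in H460a at 6 h were seen, so the number is a description. In 8 of the 12 that replicate was number 3 of H460a vehicle 6 h. There RPL36 was at 12.61 (others 13.56 to 13.67), RPL35 at 14.14 (14.50 to 14.56), RPS9 at 12.97 (13.95 to 14.00), RPL38 at 13.43 (14.43 to 14.49), RPL11 at 13.81 (14.20 to 14.26) and the median of the bright members at 14.58 (others at 14.70). RPL27A was at 11.72 (8.69 to 9.02) and RPLP2 at 10.15 (7.40 to 7.49), so these 2 dim members were high in the array where the bright ones named were low. Against the mean of the other 3, 6 of 56 members were lower there by more than 0.5 (10.7%, against 3.88% of all genes) and 2 higher (3.57%, against 3.05%). RPL27A, at 2.87, had the largest rise of all 19775 genes. RNA quality signs of that array are given in the report, and their part in these values was not tested.

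The other 4 lay closer to their groups. RPS27L was at 13.57 in H460a vehicle 6 h replicate 2 (others 13.50), RPLP2 at 7.64 in A549 GSI 24 h replicate 1 (7.47 to 7.50) and RPL10L at 8.20 in H460a GSI 6 h replicate 4 (8.10 to 8.11). The median of the bright members was 14.65 in A549 vehicle 24 h replicate 4 (others 14.64).

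The GSI effect in A549 was smaller at 24 h than at 6 h as deposited, by tests of the difference itself, for RPL14 (-0.36), RPL30 (-0.35), RPL6 (-0.34), RPL29 (-0.33), RPL37 (-0.33), RPS7 (-0.31), RPL9 (-0.30) and RPL24 (-0.29). None of these 8 passed when quantile normalized. The change of RPS27L with time differed between the lines by 0.79 as deposited, and this difference also passed when quantile normalized.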

How the results depend on the processing

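Across the alternatives, the 80 named differences kept direction and side of the threshold in 1431 cases, lost the call in 394 and changed sign in 30, and the causes were not tested. A change of sign was counted whatever its p-value. Of these, only RPS27L between lines at 6 h and RPS21 between lines at 24 h also passed the test in the opposite direction. With quantile normalization over all arrays, within each line, and over all arrays without 3 of them (A549 GSI 6 h replicates 3 and 4 and H460a vehicle 6 h replicate 3, chosen after seeing the data), in that order, values were as follows. For A549 over time, medians were 0.038, 0.037 and 0.038 and counts past the threshold 5, 8 and 11, with RPL11 at -0.081, -0.091 and -0.081, RPL22 at -0.045, -0.048 and -0.045, RPL3 at -0.10, -0.12 and -0.10 and RPS4X at -0.021 in each. For the lines at 24 h counts were 32, 37 and 38, with a median of -0.18 within each line. In the first setting 25.5% of all genes were higher there and 22.8% lower. The other member counts of this section stand without the share of all genes in the same setting, so they describe only how calls of members moved. For the lines at 6 h medians were -0.054, -0.16 and -0.073, RPS27L was at 0.23, 0.0084 and 0.22, the first count was 28, and RPL3 was at 0.021 and 0.051 in the first and last, with RPL27A at 0.11 in the last. For A549 GSI at 6 h medians were 0.017, 0.017 and 0.010 and counts 0, with RPL11 at -0.021, -0.024 and -0.029, RPL22 at -0.032, -0.034 and -0.011, RPL3 at -0.029 and -0.033 in the first 2 and RPLP1 at -0.00092 in the last. For the GSI effect between lines at 6 h medians were -0.0096, -0.010 and 0.0015, and for that between times in A549 -0.035, -0.034 and -0.029 with counts of 0. The last setting gave 4 for H460a over time.

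As deposited without those 3 arrays, counts were 4 for H460a over time, 0 for A549 GSI at 6 h and 0, with a median of -0.14, for the effect between times. Centring each array on its median gave 4 for H460a over time, a median of -0.14 and 29 for the lines at 24 h, -0.46 for the lines at 6 h and -0.027 for the effect between lines at 24 h. The mean of all probe sets gave a median of -0.046 for the lines at 24 h, with RPS21 at 0.22, and RPL38 at -0.13 over time in H460a, which was -0.31 without _x_at probe sets. Array weights gave 29 for the lines at 24 h, and the effects between lines at 6 h and between times gave 1 and 37 with array weights, 2 and 27 with trend and robust fitting, 30 and 40 without genes under 10, and 4 and 33 without genes below the median. The effect between times gave 2 with each probe set on its own, 3 with the replicate block and 0 with the arrays of the line or the comparison's own groups. H460a over time gave 4 and 2 in those fits, and A549 GSI at 6 h gave 0 with its own groups only. No label states that the replicate numbers pair the samples, and the block moved no other count by over 1.5 times.

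Leaving out 1 array of the compared groups at a time gave counts of 50 to 51 (medians 0.326 to 0.366) for A549 over time. The counts were 3 to 11 (0.031 to 0.071) for H460a over time. For the lines at 24 and 6 h they were 14 to 17 (-0.091 to -0.075) and 43 to 46 (-0.376 to -0.328). For A549 GSI at 6 h the range was 8 to 47 (0.196 to 0.293). All 50 bright members passed there without H460a vehicle 6 h replicate 3, an array outside the compared groups. The GSI effect gave 0 to 27 (0.162 to 0.263) between lines at 6 h and 0 to 41 (-0.289 to -0.198) between times. The count was 0 throughout for A549 GSI at 24 h (-0.011 to -0.0004), H460a GSI at 6 h (0.016 to 0.052) and 24 h (-0.0023 to 0.015) and the effect between lines at 24 h (-0.017 to -0.0028). The fall of RPS27L over time in H460a passed in 23 of 23 alternatives (-0.43 to -0.27). At 24 h RPL36 (-0.70 to -0.40), RPL35 (-0.51 to -0.36), RPL14 (-0.46 to -0.30) and RPS6 (0.13 to 0.23) passed in 22 of 22, and RPS27L in 21, at 0.12 without passing with the mean of its probe sets. Replicates of 4 limit how small a difference could be called.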
